A study of Saccharomyces cerevisiae with 12 samples.

Results

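Trehalose is a disaccharide of glucose that yeast stores as a reserve carbohydrate and that protects proteins and membranes under stress. The 7 genes described here, of 7108 named features in the count table, encode the proteins that make and break it down, and they were picked out by their systematic names. Synthesis is the work of 4 genes, *TPS1* (YBR126C), *TPS2* (YDR074W), *TPS3* (YMR261C) and *TSL1* (YML100W). Tps1 joins glucose from UDP-glucose to a sugar phosphate, Tps2 removes the phosphate from the product, and Tps3 and Tsl1 are regulatory subunits of the same complex. Degradation is the work of 3 genes, *NTH1* (YDR001C), *NTH2* (YBR001C) and *ATH1* (YPR026W). Nth1 and Nth2 are the neutral trehalases of the cytosol, and Ath1 is the acid trehalase, which acts on trehalose outside the cytosol. Trehalose is low in cells that grow fast on glucose and accumulates as growth slows, while stress signals acting through the transcription factors Msn2 and Msn4 raise transcripts of the pathway.

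RNA was sequenced from *S. cerevisiae* in 4 groups of 3 libraries, to ask how cells adapt to the loss of Ulp2, a protease that takes apart chains of the small protein modifier SUMO. WT is strain MHY1379, whose chromosomal *ULP2* is deleted and which carries *ULP2* on the plasmid YCplac33, so that all 4 groups share the chromosomal deletion. Nascent *ulp2Δ* cells had recently lost that plasmid. The paper states that early adaptation to this loss includes aneuploidy, a changed number of certain chromosomes, and that long-term adaptation restores the normal number. Chromosome number in these libraries, and its part in the comparisons with nascent cells, was not tested. Lines 6 and 9 are *ulp2Δ* cells evolved for 500 generations in rich glucose medium (YPD) by daily dilution, and each is a single line, so that the 3 libraries of a line say nothing of other lines. No WT labelled with 500 generations was among the 4 groups. Differences of a line from WT or nascent cells therefore also hold the effect of long serial culture. That effect cannot be told apart from adaptation to the loss of Ulp2. The study describes evolved strains that carry either the founder's change in Uba2, a subunit of the SUMO-activating enzyme, or that change and a further change, and the labels do not say which line number has which genotype. Nor do the labels say whether the replicates came from separate cultures, so p-values measure the spread between these libraries, which may be technical.

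The libraries held between 20467216 and 30719553 counts on named genes, 6372 genes passed the filter on low counts, and all 7 trehalose genes were among them. *ULP2* had 8699, 8519 and 10694 counts in WT and between 3 and 20 counts in the other 9 libraries, which checks the labels. WT also differed from the other groups in *TRP1*, a tryptophan biosynthesis gene with 623 to 807 counts in WT and 0 to 3 elsewhere, and in *URA3*, the plasmid's marker, with 47875 to 56358 counts in WT and 1581 to 3847 elsewhere. Comparisons with WT therefore hold these differences too, and they cannot be told apart from the loss of Ulp2. The cells were described as growing exponentially, yet genes that glucose represses were abundant: the gluconeogenic *PCK1* exceeded 99.6% of coding genes in WT by CPM (counts scaled to library size) per kilobase of coding sequence. Ribosomal protein genes (132) took 3.2% to 3.25% of the counts in WT, 5.24% to 5.4% in nascent *ulp2Δ*, 1.05% to 1.1% in line 6 and 1.97% to 2.08% in line 9. The summed CPM of 7 genes of diauxic and respiratory growth, none of them at 0, ran from 18630 to 19450 in WT, from 19300 to 20740 in nascent *ulp2Δ*, from 21220 to 22320 in line 6 and from 24380 to 26050 in line 9. These marks of growth stage thus moved with the groups, and their part in the results on trehalose genes was not tested.

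Each of the 7 genes has a single coding exon on the R64 (sacCer3) assembly. *TPS1* lies at chrII:488905-490392 on the minus strand, *TPS2* at chrIV:593893-596583 on the plus strand, *TPS3* at chrXIII:790205-793369 on the minus strand and *TSL1* at chrXIII:70624-73920 on the plus strand. *NTH1* lies at chrIV:450220-452475 on the minus strand, *NTH2* at chrII:238941-241283 on the minus strand and *ATH1* at chrXVI:615379-619014 on the plus strand. None overlaps another gene of the RefSeq annotation. Features that only the SGD gene models hold were not part of this check. The set holds paralogs, with *TPS3* and *TSL1* 66.5% identical over 3091 aligned coding bases and *NTH1* and *NTH2* 72.3% identical over 2245. No stretch as long as a read from any of the 7 coding sequences occurs elsewhere in the genome, so the paralogs could be counted apart.

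The regions before the start codons are shown because Msn2 and Msn4 bind the stress response element (STRE), the letters AGGGG or, on the other strand, CCCCT, and the genes differed widely in how many they hold. In the 500 bases before the start codon, *TPS1* had 6 STRE matches, *TSL1* 5, *TPS2* 4, *NTH1* 3, *TPS3* 2, *ATH1* 1 and *NTH2* none. Of all 6000 windows of that length, 34.1% held at least 1 match, 8.13% at least 2, 1.83% at least 3 and 0.45% at least 4. All 4 synthesis genes thus had at least 2 matches, and of the trehalases only *NTH1* did. The stretches below hold the matches that lie more than 150 bases before the start codon, 5′ to 3′ on the strand of the gene, read from the RefSeq R64 genome, with each STRE match in capitals.
TPS1 (chrII:490617-490874, minus strand): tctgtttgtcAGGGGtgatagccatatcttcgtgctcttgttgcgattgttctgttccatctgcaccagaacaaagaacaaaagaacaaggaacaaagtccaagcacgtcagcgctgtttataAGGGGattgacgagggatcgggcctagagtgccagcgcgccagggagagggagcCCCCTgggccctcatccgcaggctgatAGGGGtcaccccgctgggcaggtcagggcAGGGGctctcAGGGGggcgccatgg
TPS2 (chrIV:593393-593599, plus strand): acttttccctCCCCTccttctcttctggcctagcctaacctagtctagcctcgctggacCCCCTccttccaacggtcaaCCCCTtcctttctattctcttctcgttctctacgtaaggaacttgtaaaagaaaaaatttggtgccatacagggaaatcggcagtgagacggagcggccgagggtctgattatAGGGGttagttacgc
TPS3 (chrXIII:793572-793614, minus strand): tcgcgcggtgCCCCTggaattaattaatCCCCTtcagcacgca
TSL1 (chrXIII:70236-70473, plus strand): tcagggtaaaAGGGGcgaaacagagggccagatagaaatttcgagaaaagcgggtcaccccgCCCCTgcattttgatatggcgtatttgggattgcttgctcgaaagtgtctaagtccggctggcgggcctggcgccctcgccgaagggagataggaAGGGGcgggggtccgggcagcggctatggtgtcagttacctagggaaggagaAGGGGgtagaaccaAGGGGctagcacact
NTH1 (chrIV:452803-452835, minus strand): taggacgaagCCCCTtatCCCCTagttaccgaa
ATH1 (chrXVI:615065-615089, plus strand): ctcttctttgCCCCTcaaaatttat
The matches of *TPS1*, *TPS2* and *TSL1* stood on both strands, while those of *TPS3* and *NTH1* formed tight pairs of CCCCT. The third STRE of *NTH1* lies closer to the start codon and is not shown.

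Matches of 2 other motifs were counted in the same windows. The post-diauxic shift element, bound by Gis1 and searched as TAAGGGAT or TTAGGGAT on both strands, occurred once, in *ATH1*, and in 2.6% of all windows. The heat shock element, bound by Hsf1 and searched as GAANNTTC, which reads the same on both strands, occurred at 2 places each in *TSL1* and *ATH1* and at 1 in *NTH2*. Of all windows, 19.2% held at least 1 match and 1.97% at least 2. No match of different motifs overlapped in the 7 windows. The windows of *TPS1*, *TPS3*, *TSL1* and *NTH2* reach into a neighbouring gene. A match says only that the letters are there.

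**Figure D1:**
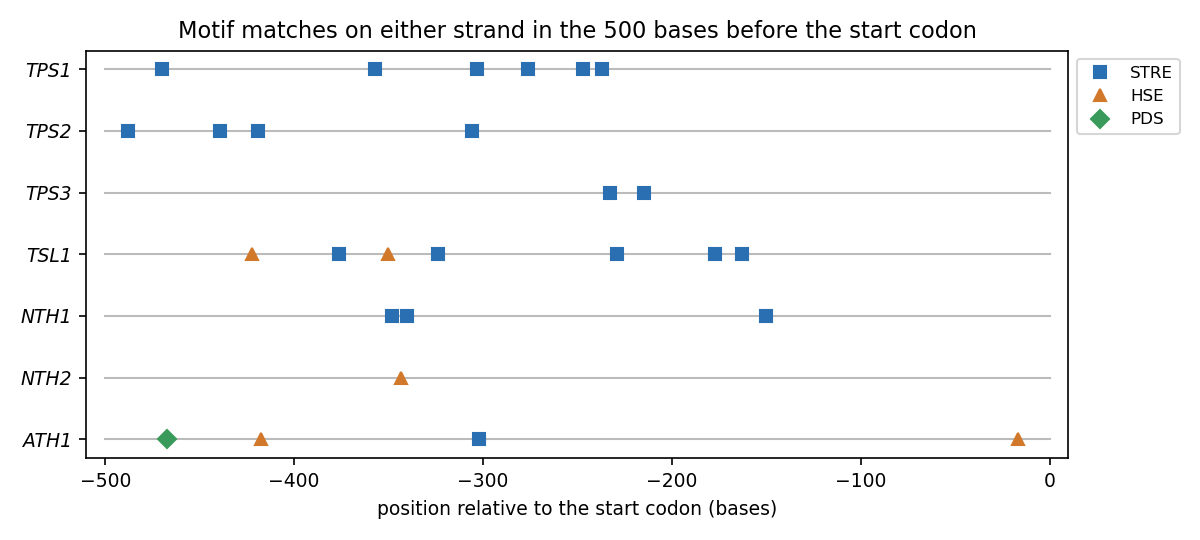
Motif matches in the 500 bases before the start codon of each of the 7 genes; the x axis is the position in bases relative to the start codon, squares are STRE, triangles heat shock element and the diamond post-diauxic shift element matches on either strand. *TPS1* has 6 STRE matches and *NTH2* has none.

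In WT the transcript levels of the 7 genes, in CPM per kilobase, covered more than a 10-fold range. *TPS1* was the most abundant with 585.6 ± 28.2 CPM per kilobase (SD, n = 3), above 93.8% of 5836 coding genes, and *NTH1* followed with 230.4 ± 3.48 CPM per kilobase (SD, n = 3). *TSL1* had 189 ± 5.7 CPM per kilobase (SD, n = 3) and *TPS2* 115.7 ± 4.38 (SD, n = 3). The catalytic enzyme of the first step and the main neutral trehalase therefore led their branches, with 62.7% of the synthesis transcripts and 68.2% of the degradation transcripts per kilobase. *ATH1* had 54.46 ± 3.18 CPM per kilobase (SD, n = 3), *NTH2* 52.79 ± 2.81 (SD, n = 3) and *TPS3* 43.45 ± 1.01 (SD, n = 3). The WT libraries of *ATH1* and *NTH2* overlapped on this scale, and the other neighbours in the order did not. In nascent *ulp2Δ* the order of *NTH1* and *TSL1* was exchanged, with 246.2 to 257.4 CPM per kilobase for *NTH1* and 264.8 to 270 for *TSL1*. The same libraries of *ATH1*, *NTH2* and *TPS3* lay close together, between 60.78 and 67.79 CPM per kilobase, and each pair of these 3 genes overlapped. In lines 6 and 9 the order was that of WT, with *ATH1* and *NTH2* overlapping in line 6 and apart in line 9.

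The plot of CPM by library shows all 7 genes in the 12 libraries. In bulk RNA, a change in the share of cells that express a gene and a change in RNA per cell cannot be told apart. Against WT, which serves as the control of all 3 strains, every gene was higher in each strain by edgeR's quasi-likelihood test at an adjusted p under 0.05, but the sizes differed by strain and by role. All 3 comparisons share the WT libraries, so that they are not independent of each other.

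**Figure D2:**
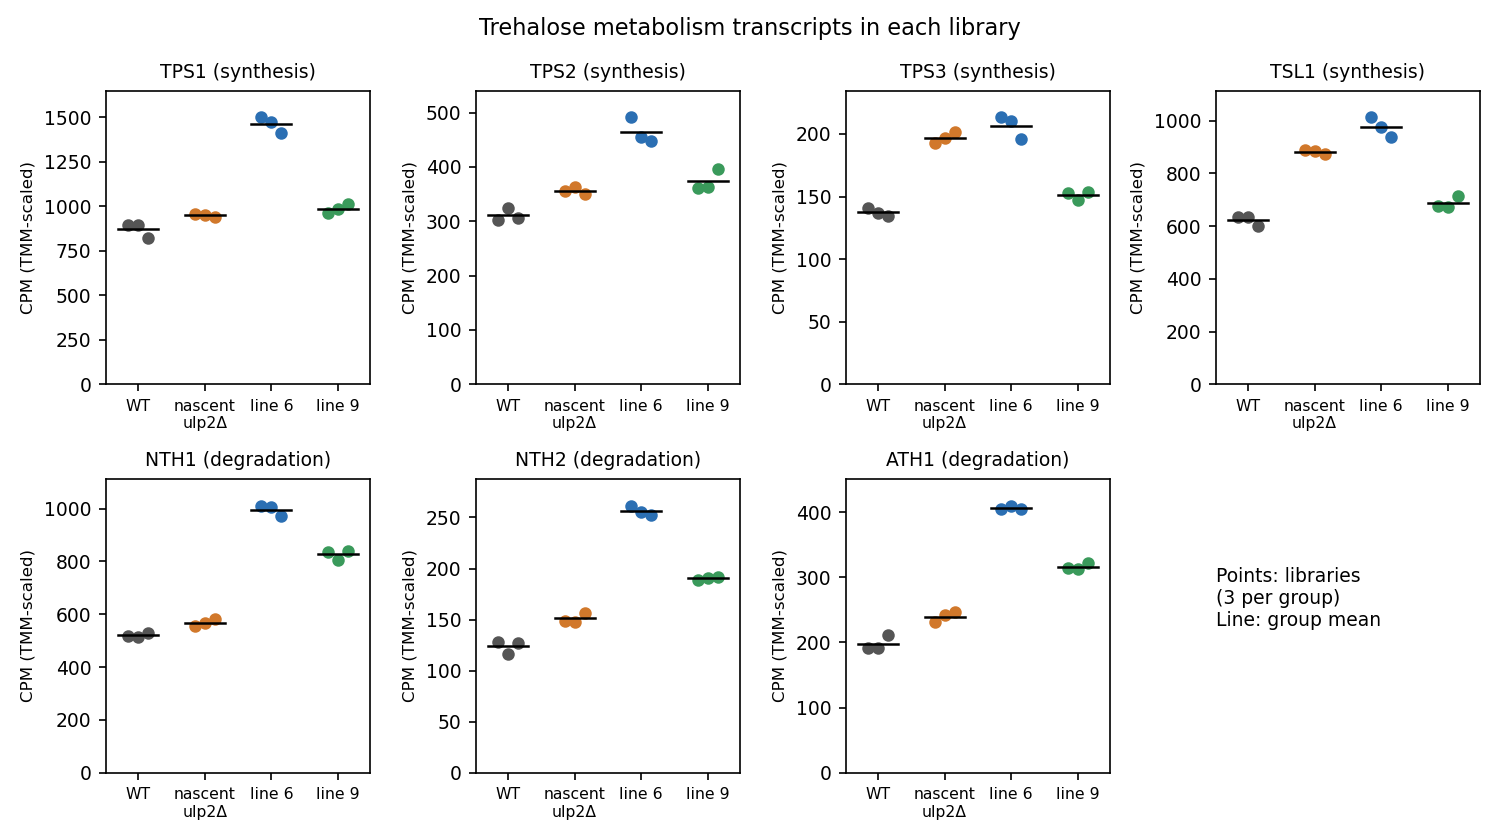
TMM-scaled CPM of each gene (y axis, from 0) in the 3 libraries of WT, nascent *ulp2Δ*, line 6 and line 9 (x axis); points are libraries and lines group means. For *TPS3* and *TSL1* the nascent libraries sit near those of line 6, while for the 3 trehalases the line 6 and line 9 libraries stand above the rest.

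In nascent *ulp2Δ* the largest rises were those of the paralogous regulatory subunits. *TPS3* had 141, 136.9 and 134.7 CPM in WT and 192.4, 196.4 and 201.7 in nascent cells. *TSL1* had 634.1, 633.9 and 601.4 CPM in WT and 890.2, 883.4 and 873.1 in nascent cells. For both subunits every nascent library stood well above every WT library. The log2 fold change was 0.52 (SE 0.038, adjusted p = 8.15e-09) for *TPS3* and 0.50 (SE 0.0385, adjusted p = 1.34e-08) for *TSL1*, or 1.43-fold and 1.42-fold (SE is the standard error of the log2 value). These exceeded the changes of 81.5% and 80.9% of the tested genes.

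The catalytic subunits moved less. *TPS1* had 893.1, 897.9 and 823 CPM in WT and 954.3, 952.6 and 939.6 in nascent cells, which gave a log2 change of 0.12 (SE 0.0397, adjusted p = 0.0116). *TPS2* had 302.5, 324.7 and 306.8 CPM in WT and 355.7, 362.9 and 351 in nascent cells, which gave a log2 change of 0.20 (SE 0.0458, adjusted p = 0.00129). Nascent libraries stood above WT without overlap for both genes, as in 35.5% of all tested genes. The call of *TPS1* rested on WT replicate 3, its lowest library, without which the log2 fold change was 0.08 and the adjusted p was 0.0556. The trehalases rose by log2 values of 0.13 for *NTH1* (adjusted p = 0.0032), 0.29 for *NTH2* (adjusted p = 7.23e-06) and 0.28 for *ATH1* (adjusted p = 1.93e-05), that is 1.09-fold to 1.22-fold. In all, 7 of 7 genes were higher, where 33.6% of the tested genes were, and by 1.43-fold at most. Their median log2 fold change was 0.27, beside -0.03 for all tested genes. When libraries were scaled by their totals the median of all genes was 0.12, and *TPS1*, *TPS2*, *NTH1*, *NTH2* and *ATH1* stood at 0.27, 0.34, 0.27, 0.44 and 0.42.

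In line 6 all 7 genes were higher than in WT, and the trehalases rose most, to about 2-fold. *NTH1* had 516.3, 514.1 and 528.7 CPM in WT and 1011, 1005 and 971.4 in line 6. *NTH2* had 127.9, 116.1 and 127.1 CPM in WT and 261.5, 255.6 and 252.2 in line 6. *ATH1* had 191.7, 191 and 211.4 CPM in WT and 405, 409.9 and 404.9 in line 6. For each trehalase the lowest line 6 library stood far above the highest WT library. The log2 fold change was 0.94 for *NTH1* (SE 0.0334, adjusted p = 1.15e-12), 1.05 for *NTH2* (SE 0.0386, adjusted p = 1.59e-12) and 1.04 for *ATH1* (SE 0.0405, adjusted p = 3.18e-12). These were above the changes of 94.4% to 95.7% of the tested genes.

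The synthesis genes of line 6 rose 1.49-fold to 1.68-fold. *TPS1* led, with 1501, 1475 and 1410 CPM in line 6 and a log2 change of 0.75 (SE 0.0399, adjusted p = 1.35e-10). *TPS2* had 491.4, 454.8 and 447.4 CPM in line 6, and its log2 fold change was 0.58 (SE 0.0458, adjusted p = 1.56e-08). The regulatory subunits changed to a like extent, with log2 fold changes of 0.59 for *TPS3* (SE 0.038, adjusted p = 1.42e-09) and 0.65 for *TSL1* (SE 0.0385, adjusted p = 5e-10). Every line 6 library stood above every WT library in all 7 genes, as in 37.5% of all tested genes. At 7 of 7 genes, against 36.8% of all tested genes, the share called higher was above the background. The 2-fold threshold was passed by *NTH2* and *ATH1*, as it was by 4.50% of tested genes in that direction, and both lay close to it: when libraries were scaled by their totals neither passed. The median of the 7 log2 fold changes was 0.75, beside -0.01 for all tested genes.

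In line 9 the branches parted. The trehalases rose 1.54-fold to 1.60-fold against WT, while the synthesis genes rose 1.1-fold to 1.2-fold. *NTH1* had 833.9, 806.1 and 839.4 CPM in line 9, and its log2 fold change was 0.67 (SE 0.0333, adjusted p = 2.36e-10). *NTH2* had 188.5, 191 and 191.7 CPM, a log2 fold change of 0.62 (SE 0.0385, adjusted p = 2.23e-09). *ATH1* had 313.6, 313.5 and 321.8 CPM, a log2 fold change of 0.68 (SE 0.0404, adjusted p = 1.51e-09). The 3 trehalases exceeded the changes of 93.7% to 94.6% of the tested genes, much as in line 6, although the rises themselves were smaller.

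Among the synthesis genes of line 9, *TPS1* had 964.8, 985 and 1012 CPM (log2 fold change 0.18, SE 0.0397, adjusted p = 0.000951) and *TPS2* 361.1, 362.9 and 396.2 CPM (log2 fold change 0.26, SE 0.0457, adjusted p = 0.000127). *TPS3* had 153, 147 and 153.4 CPM (log2 fold change 0.14, SE 0.0381, adjusted p = 0.00539) and *TSL1* 676.4, 671.2 and 713.7 CPM (log2 fold change 0.14, SE 0.0385, adjusted p = 0.00456). All 4 stood above WT without overlap, by small margins, as did 34.1% of all tested genes by any margin. The call of higher covered 7 of 7 genes and 32.5% of all tested genes, and no member changed 2-fold, as 1.74% of tested genes did in that direction. The median of the synthesis genes was 0.16 and that of the trehalases 0.67, beside -0.01 for all tested genes.

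**Figure D3:**
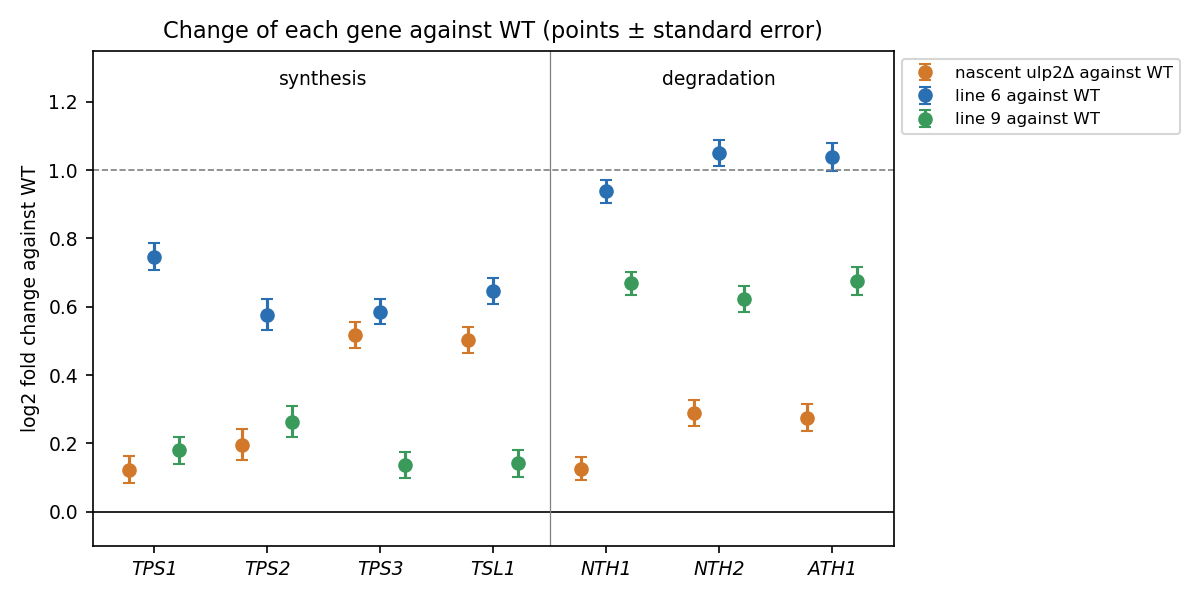
Log2 fold change of each gene against WT (y axis) in nascent *ulp2Δ*, line 6 and line 9, with standard errors as bars, for the 4 synthesis and 3 degradation genes (x axis); the dashed line marks a 2-fold change. *TPS3* and *TSL1* hold the largest values of nascent *ulp2Δ*, at 0.52 and 0.50, and the 3 trehalases hold the largest values of both lines.

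The evolved lines were also compared directly with nascent *ulp2Δ*, where no group had more than 20 counts of *ULP2* or 3 of *TRP1* in a library. In line 6 the trehalases were higher by log2 values of 0.81 for *NTH1* (adjusted p = 4.44e-12), 0.76 for *NTH2* (adjusted p = 4.9e-11) and 0.76 for *ATH1* (adjusted p = 8.92e-11). *TPS1* was higher by 0.62 (adjusted p = 9.01e-10) and *TPS2* by 0.38 (adjusted p = 1.55e-06). The regulatory subunits, already raised in nascent cells, differed little: *TSL1* by 0.15 (adjusted p = 0.00278) and *TPS3* by 0.07 (95% interval -0.012 to 0.149, adjusted p = 0.109), with nascent and line 6 libraries of *TPS3* overlapping. The test thus called 6 of 7 genes higher, and 40.1% of all tested genes. Library totals moved the median of all genes in this comparison to -0.25, with *TPS1* at 0.37 and *TPS2* at 0.13, both still higher, and *TSL1* then stood at -0.11 (adjusted p = 0.00825) and *TPS3* at -0.18 (adjusted p = 0.000235), below zero but above that median.

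Between line 9 and nascent *ulp2Δ*, the regulatory subunits were lower in line 9 and the trehalases higher. *TPS3* was lower in line 9 by a log2 value of -0.38 (SE 0.0378, adjusted p = 2.15e-07) and *TSL1* by -0.36 (SE 0.0384, adjusted p = 4.88e-07), that is 0.77-fold and 0.78-fold the nascent level. *NTH1* was higher by 0.54 (SE 0.0332, adjusted p = 7.16e-10), *NTH2* by 0.33 (SE 0.0382, adjusted p = 1.09e-06) and *ATH1* by 0.40 (SE 0.0401, adjusted p = 2.41e-07). Neither catalytic subunit passed the test, with 0.06 for *TPS1* (95% interval -0.028 to 0.142, adjusted p = 0.201) and 0.07 for *TPS2* (95% interval -0.031 to 0.164, adjusted p = 0.195). So 3 of 7 genes were higher, where 38.2% of all tested genes were, and 2 were lower, where 37.9% were. Both shares are near the background. Library totals moved the median of all genes to -0.18, and *TPS1* (-0.12, adjusted p = 0.00336) and *TPS2* (-0.11, adjusted p = 0.0217) were then called lower, so that 3 genes were higher and 4 lower. The same scaling left *NTH2* at 0.15 and *ATH1* at 0.22, still higher.

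All 7 genes were higher in line 6 than in line 9, where 28.2% of all tested genes were. The difference was 0.57 for *TPS1* (SE 0.0397, adjusted p = 8.5e-09), 0.51 for *TSL1* (SE 0.0384, adjusted p = 2.18e-08) and 0.45 for *TPS3* (SE 0.0378, adjusted p = 7.3e-08) on the log2 scale. It was 0.43 for *NTH2* (adjusted p = 1.24e-07), 0.36 for *ATH1* (adjusted p = 1.5e-06), 0.32 for *TPS2* (adjusted p = 2.66e-05) and 0.27 for *NTH1* (adjusted p = 4.95e-06). Every line 6 library stood above every line 9 library in all 7 genes, as in 30.9% of all tested genes. *NTH1*, the main neutral trehalase, was the gene in which the lines were closest.

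Ratios taken within a library do not depend on how libraries are scaled, and they show the same shape. The summed synthesis transcripts per kilobase exceeded those of the trehalases 2.769 ± 0.174 times in WT (SD, n = 3; 2.573 to 2.908), 2.883 ± 0.0909 times in nascent *ulp2Δ* (SD, n = 3; 2.782 to 2.959), 2.288 ± 0.0429 times in line 6 (SD, n = 3; 2.248 to 2.333) and 1.98 ± 0.0427 times in line 9 (SD, n = 3; 1.932 to 2.014). WT and nascent libraries overlapped, every library of line 6 lay below them, and every library of line 9 lay below those of line 6. *NTH1* over *TPS1* moved alike, from 0.3942 ± 0.0256 in WT (SD, n = 3) and 0.3943 ± 0.0121 in nascent cells (SD, n = 3) to 0.4494 ± 0.00502 in line 6 (SD, n = 3) and 0.5523 ± 0.0158 in line 9 (SD, n = 3).

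The ratio of regulatory to catalytic subunits, *TPS3* and *TSL1* over *TPS1* and *TPS2*, was highest in nascent *ulp2Δ*. It was 0.4282 ± 0.00275 there (SD, n = 3) and 0.3316 ± 0.00604 in WT (SD, n = 3), with the nascent libraries between 0.4258 and 0.4312 and the WT libraries between 0.3252 and 0.3372. In line 6 it was 0.3126 ± 0.00178 (SD, n = 3) and in line 9 0.3193 ± 0.00513 (SD, n = 3), and the libraries of both lines lay just below those of WT. Within the regulatory pair the balance held closer, with a ratio of *TSL1* to *TPS3* between 4.305 in nascent cells and 4.541 in line 6 as group means. No p is given for these ratios because the genes were grouped with results of these data known.

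**Figure D4:**
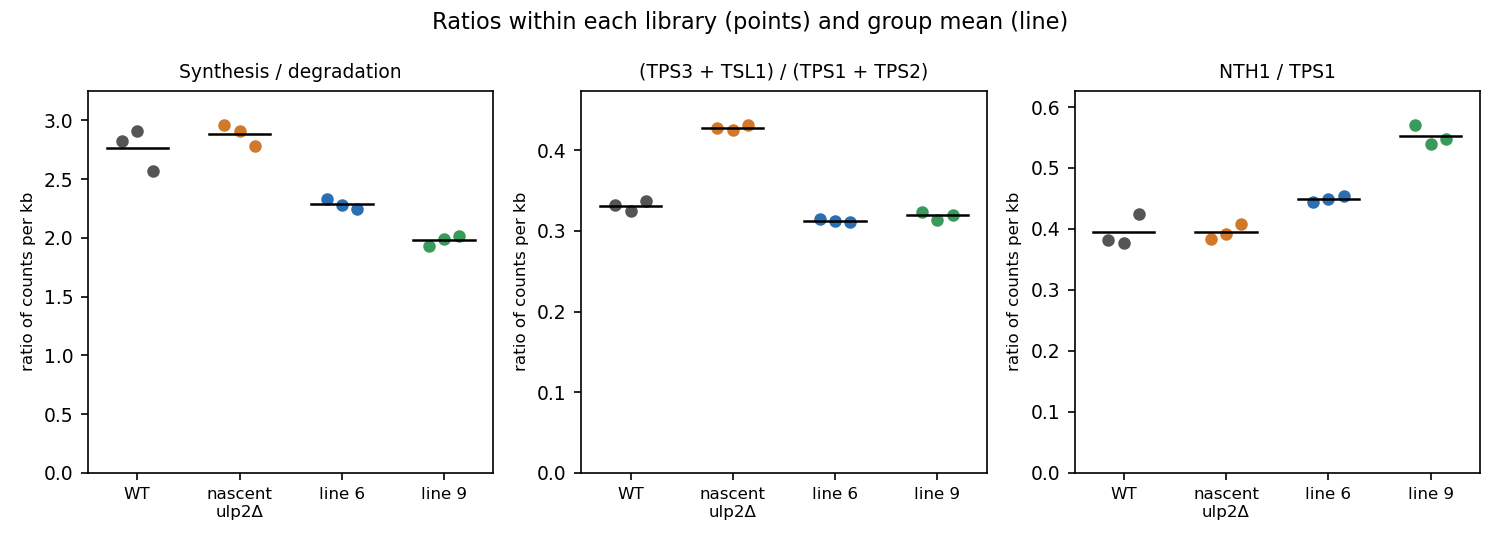
Ratios of counts per kilobase within each library (y axes, from 0) in the 4 groups (x axis), for synthesis over degradation genes, regulatory over catalytic subunits, and *NTH1* over *TPS1*; points are libraries and lines group means. The synthesis over degradation ratio is lowest in line 9, at 1.932 to 2.014, and the regulatory over catalytic ratio is highest in nascent *ulp2Δ*, at 0.4258 to 0.4312.

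Over the 4 group means, the paralogous regulatory subunits resembled each other and so did the trehalases. The likeness of a pair was measured as the root mean square difference of their centred mean log2 CPM over the 4 groups, so that a small value means a like shape. Of the 21 pairs, the closest were *NTH2* with *ATH1* (0.0278) and *TPS3* with *TSL1* (0.0294), followed by *NTH1* with *ATH1* (0.0633) and *NTH1* with *NTH2* (0.0845). *TPS1* was nearest to *TPS2* (0.101) but closer to *NTH2* (0.164) and *ATH1* (0.183) than to *TSL1* (0.187) and *TPS3* (0.209). The pair farthest apart was *TPS3* and *NTH1* (0.354). Among 4436 genes with a mean log2 CPM of at least 5, with the other members left aside, the nearest to *NTH1* was *ATG9* (0.0196), which encodes a membrane protein of autophagy. Next to it was *FLR1* (0.034), a drug transporter gene. The nearest to *TPS1* were *VMR1* (0.0225), a vacuolar transporter gene, and *ALG13* (0.028), and those to *TPS2* were *GSH1* (0.02), whose product starts glutathione synthesis, and *VPS17* (0.0211), a retromer subunit gene. *TPS3* was nearest to *IXR1* (0.0316) and *NUS1* (0.0385), and *TSL1* to *SLM1* (0.0333) and *SPO24* (0.0472). *NTH2* was nearest to *AIM46* (0.0342) and *FMP46* (0.037), and *ATH1* to *FMP46* (0.0322) and *AGP2* (0.033). These are descriptions over 4 points that share their libraries.

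Genes around the pathway did not all move with it. Their counts against WT stand beside shares of all tested genes called lower of 39.7% in nascent *ulp2Δ*, 37.2% in line 6 and 33.9% in line 9, and the shares called higher given above. At the 2-fold threshold, shares of all tested genes are given only for rises of lines 6 and 9 against WT. Precursor supply covers 6 genes, the hexokinases *HXK1* and *HXK2*, the glucokinase *GLK1*, the phosphoglucomutases *PGM1* and *PGM2* and *UGP1*, which makes UDP-glucose. Nascent *ulp2Δ* had 2 of them higher than WT and 2 lower. Line 6 had 4 higher, with *PGM1* lower, and line 9 had 1 higher, with 3 lower. *UGP1*, which feeds Tps1 directly, had 367.7 ± 15.1 CPM in WT (SD, n = 3), 377.3 ± 9.35 in nascent cells (SD, n = 3), 678 ± 30.1 in line 6 (SD, n = 3) and 371.5 ± 17.6 in line 9 (SD, n = 3). Its log2 fold change was 0.88 in line 6 (SE 0.045, adjusted p = 7.72e-11) and 0.02 in line 9 (SE 0.0449, adjusted p = 0.779). *HXK1* passed 2-fold in line 6, with 2819 ± 137 CPM against 1113 ± 3.34 in WT (SD, n = 3 each) and a log2 fold change of 1.34 (SE 0.0401, adjusted p = 1.49e-13), and it fell in line 9 by 0.26 (adjusted p = 3.24e-05). Against nascent cells, *HXK1*, *GLK1* and *PGM2* were 2-fold higher in line 6 (log2 fold changes of 1.12, 1.03 and 1.03), and *HXK1* differed by 1.60 between line 6 and line 9. The medians of the list against WT were -0.01, 0.77 and -0.06 in nascent cells, line 6 and line 9.

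Regulators of neutral trehalase also differed by strain. The 14-3-3 proteins Bmh1 and Bmh2 bind and activate phosphorylated Nth1, and Dcs1, a scavenger decapping enzyme, has been described as an inhibitor of neutral trehalase, with Dcs2 as its paralog. Of *BMH1*, *BMH2*, *DCS1* and *DCS2*, nascent *ulp2Δ* had 1 higher than WT and 3 lower, line 6 had 3 higher with *BMH1* lower, and line 9 had 2 higher and none lower. The gene higher in nascent cells was *DCS1* (log2 fold change 0.46, adjusted p = 1.02e-08). None of these 4 genes changed 2-fold against WT.

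The transcription regulators *MSN2*, *MSN4*, *GIS1*, *HSF1* and *RIM15* were called higher for 3 and lower for 1 in nascent cells and in line 6, and higher for 3 and lower for 2 in line 9. *MSN2* and *MSN4* went opposite ways in nascent cells, with log2 fold changes of 0.45 and -0.67, and in line 6, with -0.31 and 0.36, while both were lower in line 9, by -0.24 and -0.15. In addition, *MSN4* stood 2-fold above nascent cells in line 6 (1.02). *GIS1* was higher in all 3 strains, by 0.57, 0.82 and 0.80, and so was *HSF1*, by 0.158, 0.505 and 0.454. Other stress genes known as targets of Msn2 and Msn4 did not share one direction. Of 10 such genes, nascent *ulp2Δ* had 4 above WT and 6 below it. Line 6 had 6 above and 3 below, and line 9 had 1 above and 4 below. The median log2 values were -0.51, 0.35 and -0.04. In nascent cells the small heat shock gene *HSP26* and the transketolase gene *TKL2* fell past 2-fold, with log2 values of -1.47 (adjusted p = 8.17e-14) and -1.39 (adjusted p = 7.97e-13). The 4 genes above WT there were *HSP42* (0.993, just short of 2-fold), *HSP104* (0.866), *ALD3* (0.735) and *HSP78* (0.217). In line 6 the chaperone genes *HSP42* (1.46, adjusted p = 9.31e-15) and *HSP104* (1.02, adjusted p = 9.21e-12) passed 2-fold, and in line 9 the aldehyde dehydrogenase gene *ALD3* (-1.17, adjusted p = 4.71e-13) and *TKL2* (-1.49, adjusted p = 9.36e-13) fell past it. Against nascent cells, *HSP12*, *HSP26* and *DDR2* were 2-fold higher in line 6 (1.34, 1.31 and 1.17), *HSP26* was 2-fold higher in line 9 (1.02) and *ALD3* 2-fold lower (-1.90). *HSP42* was also 2-fold higher in line 6 than in line 9 (1.08). The median of the 7 trehalose genes was above that of these 10 genes in each strain.

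*MAL11*, also called *AGT1*, encodes a sugar transporter that takes up trehalose. It had 74.86 ± 0.891 CPM in WT, 121.7 ± 2.14 in nascent *ulp2Δ*, 175.8 ± 9.73 in line 6 and 119.8 ± 5.13 in line 9 (SD, n = 3 each). Nascent cells stood 0.70 above WT on the log2 scale (adjusted p = 2.28e-09), line 6 stood 1.23 above it (adjusted p = 2e-12) and line 9 0.68 (adjusted p = 5.94e-09). Line 6 was again highest, and line 9 and nascent cells differed by -0.02 on the log2 scale, which did not pass the test.

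The genes of diauxic and respiratory growth, used above to describe growth stage, did not follow the trehalose genes as a block. *SPG4* and *SPG1*, known from stationary phase, had most in line 6, with means of 1930 and 479 CPM against 763 and 222 in WT, and 981 and 259 in line 9. *MLS1* and *JEN1* were also highest in line 6, with means of 4560 and 5030 CPM. They had 2520 and 3130 in WT, 2000 and 2390 in nascent cells, and 3830 and 4350 in line 9. *PCK1* went the other way, with 5140 CPM in line 6, 7970 in WT and 10200 in line 9. *ADH2*, a glucose-repressed alcohol dehydrogenase gene, had 759 CPM in WT against 2840 in nascent cells, with 366 in line 6 and 1220 in line 9. *ICL1* had 3660 CPM in WT, 4330 in nascent cells and 4320 in each line. Nascent cells had 4 of these 7 genes above WT and 3 below, line 6 had 5 above and 2 below, and line 9 had all 7 above. The part of growth stage in the trehalose results was not tested.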

How the data were processed

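RNA of 12 yeast libraries was sequenced as paired reads. The authors trimmed reads with Trim Galore 0.5.0, mapped them to sacCer3 with HISAT2 2.1.0, quantified SGD gene models with StringTie 1.3.3b and deposited raw counts, whole numbers that had not been normalized. How coverage became counts and whether strand was used are not given in the sources used here, so values of antisense neighbours are uncertain. Of 7114 features, 6 unnamed loci (0.0826% to 0.173% of counts) were left out, and 6011 of the named features matched the R64 annotation. Counts were TMM-scaled, filtered with filterByExpr and fitted for all 12 libraries together by the quasi-likelihood test of edgeR 4.0.16 (R 4.3.3), with Benjamini-Hochberg adjustment over 6372 genes. All adjusted p-values come from this test. A gene passed at an adjusted p under 0.05, and a 2-fold change also needed a log2 fold change of 1. CPM are TMM-scaled; levels between genes are per kilobase of coding sequence. Motifs were searched in the 500 bases before each start codon, since UTRs were not used here. The genes named were the 7 members, pathway genes given as counts with those changed 2-fold, and the 2 nearest patterns per member. *UGP1*, *BMH1*, *PGM1*, *DCS1*, *MSN2*, *MSN4*, *GIS1*, *HSF1*, *HSP78*, *SPG1*, *SPG4*, *PCK1*, *MLS1*, *JEN1* and *ICL1* were named after their values were seen, as were *TRP1* and *URA3*. The members and lists were chosen with earlier results of these data known. Alternatives were DESeq2 1.42.0, other scalings and filters, only the groups compared, a replicate block and leaving out each library; the tests were checked on simulated counts. Replicates of every group differed by more than sampling noise. Each member had at least 2552 counts in every library. The result of 1 further list of pathway genes is not reported here.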

Additional observations from a re-analysis of the deposited data

Results flagged for a closer look

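The effects of the evolved lines against WT differed in all 7 genes when tested directly as line 6 against line 9 (edgeR's quasi-likelihood test, adjusted p between 8.5e-09 and 2.66e-05, every library of line 6 above every library of line 9). Of all tested genes, 30.9% were higher in line 6 without overlap. The log2 difference was 0.566 for *TPS1*, 0.315 for *TPS2*, 0.449 for *TPS3* and 0.506 for *TSL1* among the synthesis genes. It was 0.269 for *NTH1*, 0.43 for *NTH2* and 0.362 for *ATH1* among the trehalases.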

How the results depend on the processing

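Of 588 alternative values for the 7 genes over the 6 comparisons, 578 kept their direction and their side of the threshold. All 7 reversals were against nascent *ulp2Δ* and came with scaling. With library totals, *TPS3* and *TSL1* of line 6 stood at -0.182 and -0.105 and *TPS1* and *TPS2* of line 9 at -0.122 and -0.113, while the median of all genes moved to -0.251 and -0.183. With TMM factors computed without chromosomes I and XII, mitochondrial and ribosomal protein genes, *TPS3* of line 6 stood at -0.022, *TPS1* and *TPS2* of line 9 at -0.026 and -0.016, and *TSL1* of line 6 at 0.055 no longer passed (adjusted p = 0.203, edgeR). Library totals left 0 genes 2-fold higher in line 6 against WT, in place of 2. *TPS1* of nascent *ulp2Δ* lost its call against WT without WT replicate 3, and *TPS3* of line 6 against nascent *ulp2Δ* passed without line 6 replicate 3 (0.108, adjusted p = 0.0168, edgeR). With raw counts not divided by coding length the synthesis over degradation ratio was 2.312 in WT, 2.491 in nascent *ulp2Δ*, 1.874 in line 6 and 1.649 in line 9, in the same order. Same-numbered libraries did not deviate together (14 of 36 correlated best with their own number), and a replicate block left the called members at 7, 7, 7, 6, 5 and 7 in the 6 comparisons. Each evolved group is 1 line, and the cause of these changes was not tested.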
